A study of Mus musculus with 6 samples.

Results

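The genes described here are the nuclear-encoded genes of the mitochondrial respiratory chain and ATP synthase, 81 of the 54232 genes in the count tables. They were chosen by name, with no measured value: protein-coding genes of GENCODE M21 (GRCm38) whose symbols follow the Nduf, Sdh, Uqcr, Cox and Atp5 patterns of subunit genes. Complex I (NADH dehydrogenase) gave 36 genes, complex II (succinate dehydrogenase) 4, complex III (cytochrome bc1) 8, complex IV (cytochrome c oxidase) 15 and complex V (ATP synthase) 18. The 81 entries hold 80 symbols, because Atp5o is listed under 2 Ensembl identifiers, of which the second had no count in any library. The name patterns follow symbols and not biochemistry: Ndufa4, now counted as a complex IV subunit, stands with complex I, Atp5s is not a subunit of the finished enzyme, and Cox4i1, Cox4i2, Cox7a2l, Ndufab1 and Cyc1 fall outside the patterns.

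RNA was sequenced from cortical neurons of wildtype CD1 mice, an outbred stock, in 3 groups of 2 libraries numbered repeat 1 and repeat 2. The control libraries carry PDL in their names, the PA libraries IKVAV (a laminin-derived peptide carried by a peptide amphiphile), and the PA + PS2 libraries IKVAV with PEDOT-S, a form of a conducting polymer. The treatment label reads peptide amphiphile for every library, the control included, and nothing in the sources used here gives the culture time, the plating or the dose. The comparisons set PA against the control, PA + PS2 against the control, and PA + PS2 against PA alone. Nothing in the labels says that a repeat was a separate culture or animal, so the p-values given here cover only the spread between samples, which may be technical. Library totals ran from 30714311 to 33923681 counts. Summed neuron markers lay between 6977 and 7517 CPM in the 6 libraries and microglia markers between 2.96 and 5.08 CPM, where CPM is the count per 1000000 counts of the TMM-scaled library. In a bulk library, fewer cells of a type and less RNA per cell cannot be told apart.

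Oxidative phosphorylation passes electrons from NADH (through complex I) and from succinate (through complex II) to ubiquinone, then through complex III and cytochrome c to complex IV, which reduces oxygen. Complexes I, III and IV pump protons across the inner mitochondrial membrane, and complex V lets them back to make ATP. All of complex II, and most subunits of the other complexes, are encoded in the nucleus; the mitochondrial genome supplies the rest. Neurons draw most of their ATP from this chain, and promoters of its nuclear genes are textbook targets of NRF1, GABPA (NRF2) and YY1.

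NRF1, GABPA and YY1 motifs, which the choice by name did not use, stood more often in these promoters than in those of all protein-coding genes. That background was not matched for expression level. RefSeq windows on GRCm38.p6, from 250 bases before to 50 after the annotated start, were found for 67 of the 80 symbols. The NRF1 motif, written GCGCA, any 1 base, then GCGC, and like the others searched on both strands, was present in 16 of 67 windows (23.9%), against 6.60% of the windows of 17492 protein-coding genes. The GABPA motif CCGGAAG was present in 15 windows (22.4%, against 11.9%) and the YY1 motif AAGATGGC in 9 (13.4%, against 3.22%), of which 7 were complex I genes. The SP1 motif GGGCGG did not stand out, with 40.3% of the windows against 46.3%, and the median GC content was 57.3% against 56.3%. These are letter matches, which do not show binding. The 4 stretches below lie within the 200 bases before the RefSeq start and hold no annotated exon. Cox6a1 and Atp5h are shown as genes with NRF1 motifs (in capitals) whose levels hardly varied. Cox7b and Cox5a are shown as the 2 genes whose levels differed most firmly between the repeats. Neither of these 2 holds an NRF1, GABPA or YY1 match in its window. Such matches were few in complex IV, to which both belong. There the NRF1 motif stood in 1 of 12 windows, GABPA in 3 and YY1 in 0. Ndufa8, which also differed between the repeats, does hold an NRF1 motif. A link between the motifs and differences between the repeats was not tested.
Cox6a1, chr5:115348982-115349129, minus strand: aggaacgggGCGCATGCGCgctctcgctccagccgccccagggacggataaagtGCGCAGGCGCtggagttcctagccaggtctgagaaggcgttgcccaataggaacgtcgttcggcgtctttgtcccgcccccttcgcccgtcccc
Atp5h, chr11:115419963-115420119, minus strand: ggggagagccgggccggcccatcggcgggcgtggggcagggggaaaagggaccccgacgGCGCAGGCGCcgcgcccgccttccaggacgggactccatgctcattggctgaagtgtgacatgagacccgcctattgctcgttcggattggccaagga
Cox7b, chrX:106015500-106015699, plus strand: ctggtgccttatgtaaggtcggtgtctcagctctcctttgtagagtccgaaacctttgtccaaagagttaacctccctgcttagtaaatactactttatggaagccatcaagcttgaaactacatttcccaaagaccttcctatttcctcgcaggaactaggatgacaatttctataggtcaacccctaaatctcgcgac
Cox5a, chr9:57521032-57521231, plus strand: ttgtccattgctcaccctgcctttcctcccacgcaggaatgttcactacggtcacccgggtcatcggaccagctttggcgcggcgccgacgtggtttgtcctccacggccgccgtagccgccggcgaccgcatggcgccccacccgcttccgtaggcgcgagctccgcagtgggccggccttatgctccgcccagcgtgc

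The respiratory chain genes took a nearly constant share of the RNA. They held 0.718% and 0.722% of all counts in the control libraries, 0.718% and 0.721% with PA, and 0.680% and 0.738% with PA + PS2. Both PA libraries thus lay on the control values, while the PA + PS2 libraries lay on either side of them, repeat 1 low and repeat 2 high. Of the 81 genes, 69 averaged at least 20 CPM, and 77 passed the filter on low counts and were tested. The 4 not tested were Cox7b2, Cox8b, Cox8c and the second Atp5o identifier, of which the last 2 had no count in any library. Across the 6 libraries the highest value was at most 1.2 times the lowest for 48 of the 77 tested genes and at most 1.5 times for 70, with a median of 1.17.

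Between genes, levels were set side by side per kilobase of transcript. ATP synthase led: Atp5b, the catalytic beta subunit, averaged 544 CPM per kb and Atp5a1, the alpha subunit, 306 CPM per kb. Together they made up 56.9% to 59.3% of the complex V sum, and complex V made up 42.3% to 43.8% of the summed CPM of all 81 genes. Ndufa4 came level with Atp5a1 at 306 CPM per kb, followed by Cox6a1 at 272, the c subunit gene Atp5g3 at 264, Cox6b1 at 234 and Uqcrq, a small complex III subunit, at 209 CPM per kb. The other complex I genes lay well below Ndufa4, the next being Ndufa7, an accessory subunit, at 118 CPM per kb. In complex II the iron-sulphur subunit Sdhb stood at 111 CPM per kb, the anchor Sdhd at 66.8, the flavoprotein Sdha at 63.9 and the anchor Sdhc at 31.6. The lowest of the tested genes were Cox7a1 at 1.33, Cox6b2 at 1.52 and Cox6a2 at 1.83 CPM per kb. In complex V the lowest was Atp5l (the g subunit) at 4.60 CPM per kb, and in complex I it was Ndufb4 (a membrane arm subunit) at 7.29 CPM per kb. Low levels need care where a gene has near-identical copies: 84.8% of the 50-base windows of the Atp5l transcript, 37.0% of those of Ndufb4 and all of those of Atp5g2 also occur in other annotated genes, so reads may have been left out or shared, and 29 members share at least 10% of their windows.

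**Figure D1:**
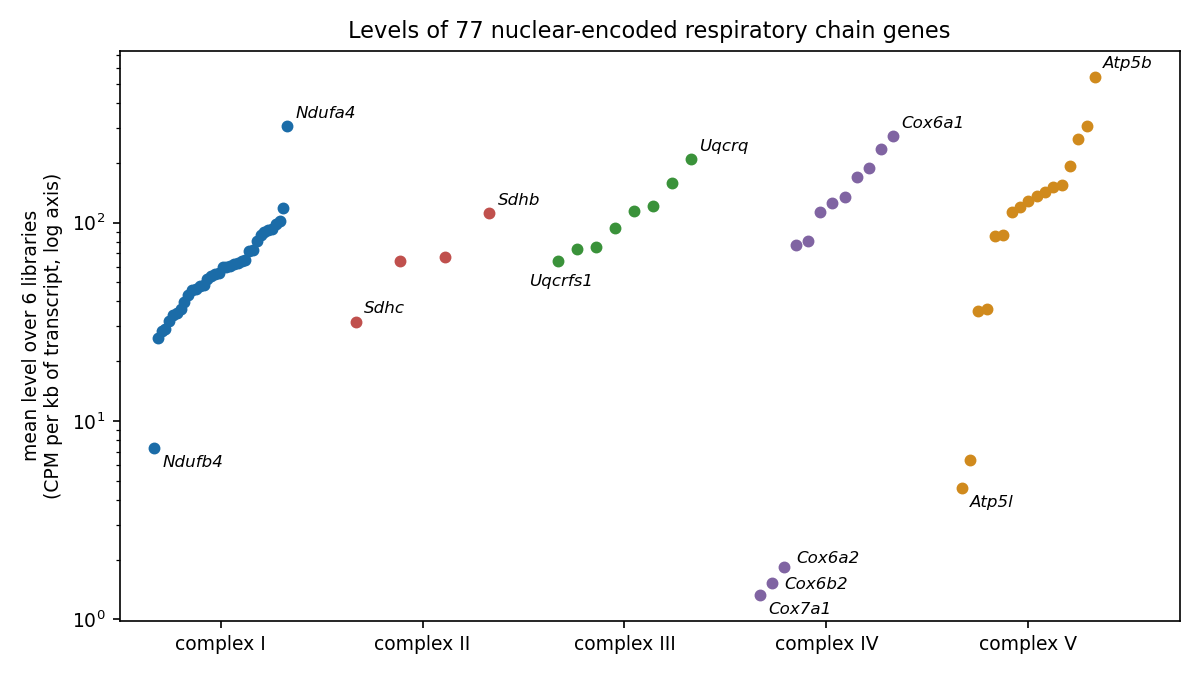
Mean level over the 6 libraries of each of the 77 tested genes, in CPM per kb of transcript on a log axis, ordered within each complex. Atp5b is highest at 544 CPM per kb, and Cox7a1, Cox6b2 and Cox6a2 lie below the other complex IV genes, at 1.33 to 1.83 CPM per kb.

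Where a subunit has tissue isoforms, the widely expressed one carried almost all of the signal. Cox6a1 lay at 144 and 164 CPM in the control, 156 and 156 with PA, and 149 and 164 with PA + PS2. Its heart and skeletal muscle counterpart Cox6a2 lay at 1.07 and 1.19, 1.13 and 1.26, and 0.956 and 1.85 CPM in the same order. Cox6b1 averaged 145 CPM and its testis counterpart Cox6b2 0.842; Cox7a2 averaged 89.1 CPM and the muscle form Cox7a1 0.522. Cox8a averaged 104 CPM, while the muscle form Cox8b had 1 count in each of 2 libraries and the testis form Cox8c none. Cox4i1, outside the name patterns, lay between 165 and 184 CPM, with its lung form Cox4i2 between 0 and 0.130 CPM. Ndufa4l2, a paralogue of Ndufa4 known to be induced by low oxygen, lay between 0 and 0.195 CPM. Among the 3 genes for the same mature c subunit of ATP synthase, Atp5g3 averaged 264, Atp5g1 86.4 and Atp5g2 35.9 CPM per kb, the last 2 with the shared sequence that makes their counts uncertain.

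Summed by complex, the PA libraries lay close to the control. The complex I sum was 1960 and 1990 CPM in the control, 1954 and 1968 with PA, and 1894 and 2087 with PA + PS2. The complex V sum was 3054 and 3177, 3055 and 3175, and 2939 and 3116 CPM. For both complexes each PA sum lay close to the control sum of the same repeat, while PA + PS2 was low in repeat 1. Complex II summed to 495 and 492 CPM in the control, 509 and 500 with PA, and 475 and 499 with PA + PS2. Complex III summed to 694 and 718, 696 and 708, and 666 and 705 CPM, and complex IV to 921 and 915, 912 and 895, and 879 and 964 CPM. In PA + PS2, repeat 1 had the lowest of the 6 sums for every complex, and repeat 2 had the highest for complexes I and IV. On the log2 scale the group means of PA lay between -0.02 (complex IV) and 0.03 (complex II) of the control, and those of PA + PS2 between -0.04 (complexes III and V) and 0.01 (complex I). These sums are given as a description and were not tested.

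**Figure D2:**
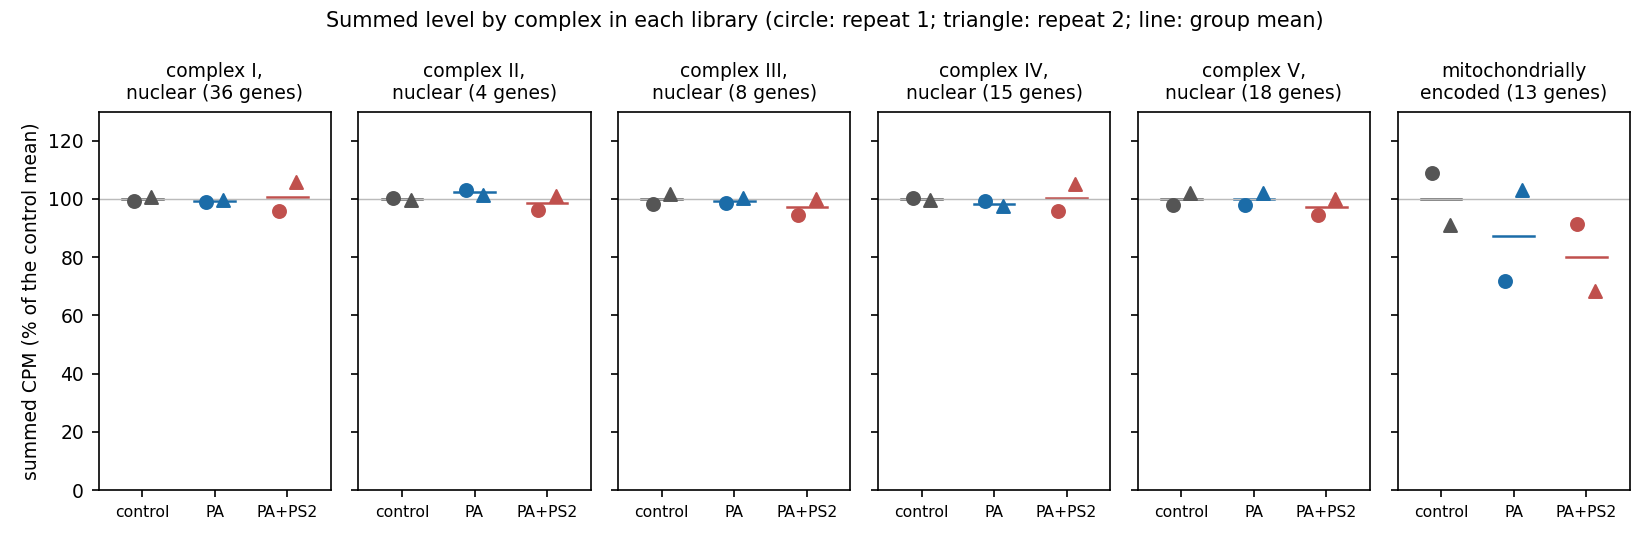
Summed CPM by complex in each library, as a percentage of the control mean (circles repeat 1, triangles repeat 2, lines group means), with the 13 mitochondrially encoded genes at the right. The nuclear sums stay within a narrow band around the control in every group. In PA + PS2 the repeat 1 library lies below the repeat 2 library for all 5 complexes. Control and PA show the same order for complexes I, III and V, but not for II and IV.

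The mitochondrially encoded subunits of the same complexes varied much more between libraries. Their sum was 17761 and 14845 CPM in the control, 11679 and 16824 with PA, and 14910 and 11156 with PA + PS2, so the ratio of mitochondrial to nuclear subunit CPM was 2.49 and 2.04, 1.64 and 2.32, and 2.18 and 1.51. The groups overlapped and the order of the repeats differed between them: repeat 1 was the higher library in control and PA + PS2 and the lower one in PA. Of the 13 genes 6, among them mt-Co2, mt-Co3 and mt-Atp6, were near 0 in every library and carry no information on their own. The 7 tested had a median log2 fold change of -0.37 for PA + PS2 against control, and none passed the test.

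No respiratory chain gene passed the test in any comparison. With edgeR's quasi-likelihood test and Benjamini-Hochberg adjustment over 17299 genes, 0 of 77 members had an adjusted p under 0.05 for PA against control, where 0% of all tested genes did. For PA + PS2 against control the count was again 0 of 77 (0% of all genes), with a smallest adjusted p of 0.674, and for PA + PS2 against PA it was 0 of 77 (0% of all genes), with a smallest adjusted p of 0.433. At an unadjusted p under 0.05 there were 0, 1 and 2 members in the 3 comparisons, where 0.595%, 6.81% and 7.70% of all genes lay below that level. The test found genes elsewhere once the repeat number entered the model as a block: PA + PS2 then differed from the control in 0.699% of all genes and from PA in 1.52%, with 0 members in each, and PA from the control in 0%. DESeq2 called 0.723% and 1.06% of all genes in the PA + PS2 comparisons and 0% for PA against control, and DESeq2 with the block 1.59%, 2.11% and 0.00578%, again with 0 members. At rates this low, few or no members would be called even if they followed the other genes.

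The intervals say how large a change these libraries leave room for. The members' log2 fold changes had a median of -0.02 for PA against control (all genes 0.01), -0.0037 for PA + PS2 against control (0.01) and 0.01 for PA + PS2 against PA (0.0045), with 31, 37 and 44 of 77 above 0. The median standard error was 0.096 and the median 95% interval reached 0.22 to either side on the log2 scale. The interval excluded a 1.5-fold change either way for 69, 71 and 68 of the 77 genes. Over all tested genes of at least 20 CPM the shares were 95.3%, 90.9% and 90.6%, and over all tested genes 52.7%, 48.8% and 48.6%. The 77 members include some under 20 CPM, so the first of these sets is not matched to them in level. For the 69 members of at least 20 CPM, the fitted difference of PA + PS2 from control ran from -0.13 (Uqcrh, the complex III hinge protein) to 0.18 (Ndufs6, a zinc-binding complex I subunit). PA against control ran from -0.19 (Ndufb6) to 0.13 (Ndufa3), both accessory subunits of complex I, and PA + PS2 against PA from -0.19 (Ndufa3) to 0.24 (Ndufs5).

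**Figure D3:**
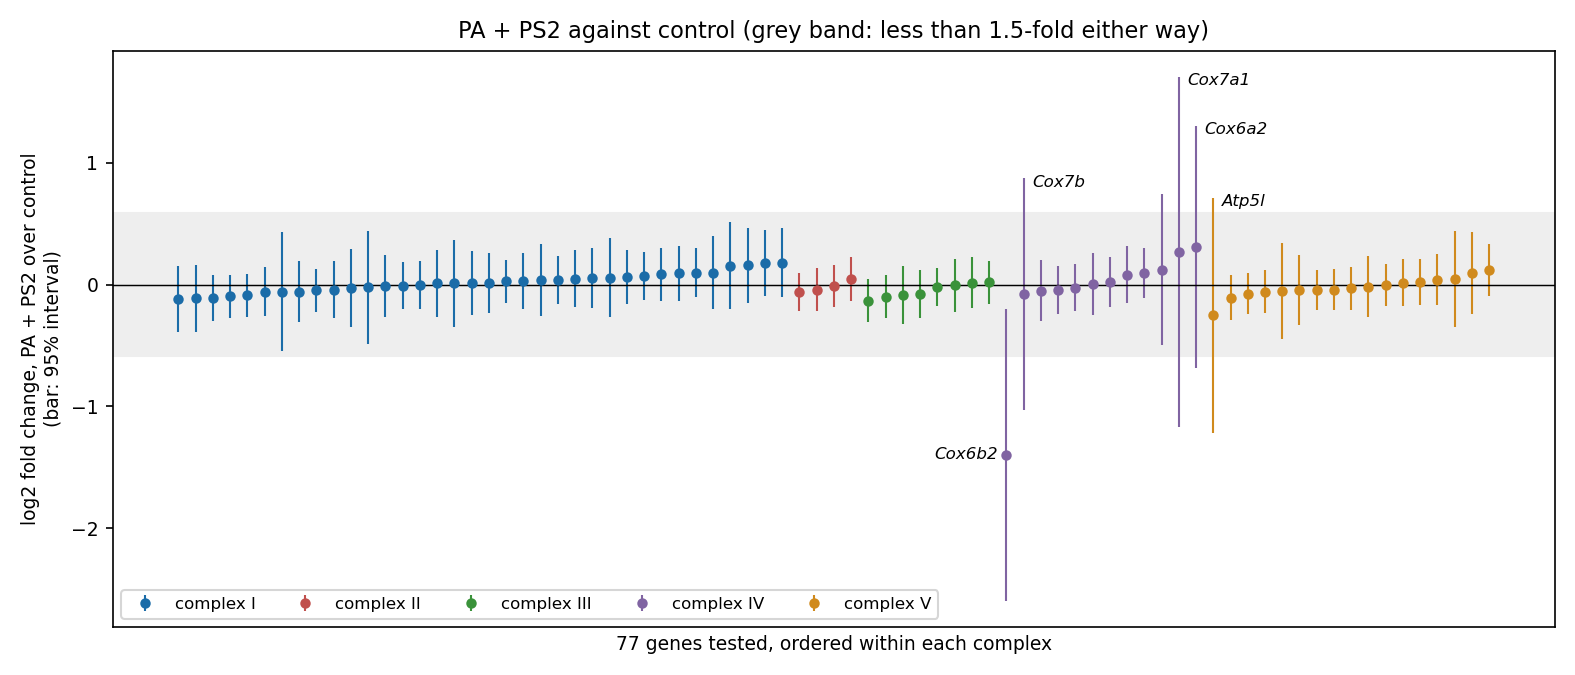
Log2 fold change of PA + PS2 over control for the 77 tested genes with 95% intervals, ordered within each complex; the grey band marks less than 1.5-fold either way. Intervals of 71 genes lie inside the band, and the interval of Cox6b2, from -2.60 to -0.20, is the only one that excludes 0.

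Among complex I genes the smallest p-values for PA + PS2 against control belonged to Ndufs4, Ndufs6 and Ndufa5, accessory subunits of the peripheral arm. Ndufs4 was at 55.1 and 54.0 CPM in the control, 53.8 and 61.5 with PA, and 55.2 and 68.2 with PA + PS2. Ndufs6 was at 33.5 and 36.1, 33.1 and 37.1, and 35.8 and 43.2 CPM. In both genes the repeat 2 library of PA + PS2 was the highest. Its repeat 1 library lay within the range of PA for both genes, barely above the control for Ndufs4 and within the control range for Ndufs6. Their log2 fold changes of 0.18 ± 0.12 (SE) and 0.18 ± 0.12 did not pass the quasi-likelihood test (adjusted p = 0.898 and 0.901). Ndufa5 lay at 55.5 and 54.5 CPM in the control, 50.8 and 49.6 with PA, and 50.5 and 51.6 with PA + PS2, lower in all 4 treated libraries, with a log2 fold change of -0.11 ± 0.084 (adjusted p = 0.935). Ndufa4, the highest of the Nduf genes, lay at 147 and 142, 138 and 133, and 129 and 141 CPM, Ndufa7 at 61.9 and 61.6, 58.6 and 62.6, and 57.9 and 70.4 CPM, and the low Ndufb4 at 7.95 and 6.79, 7.17 and 6.06, and 7.04 and 7.47 CPM. None of these 3 separated PA + PS2 from both other groups. Ndufs3, a core subunit of the hydrophilic arm, was at 44.3 and 45.5, 42.0 and 41.4, and 48.5 and 47.6 CPM. Both of its PA + PS2 libraries were above the other 4, and its difference from PA was 0.20 ± 0.088 on the log2 scale (unadjusted p = 0.0484, adjusted p = 0.644), with 39.7% of its windows shared with other annotated genes.

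In complex II, which also belongs to the tricarboxylic acid cycle, all 4 genes had intervals within 1.5-fold in every comparison. Sdha was at 185 and 187 CPM in the control, 195 and 189 with PA, and 176 and 180 with PA + PS2. Both PA + PS2 libraries were below the other 4, by little: the log2 fold change against control was -0.059 ± 0.069 (adjusted p = 0.977). Sdhb lay at 127 and 121, 129 and 130, and 121 and 134 CPM, both PA libraries above both controls and PA + PS2 overlapping each. The membrane anchors Sdhd, at 83.1 and 82.5, 81.7 and 85.0, and 78.4 and 82.5 CPM, and Sdhc, at 101 and 102, 103 and 96.1, and 99.1 and 101 CPM, overlapped between all groups. In complex III, Uqcrh lay at 91.1 and 92.7 CPM in the control, 83.1 and 86.2 with PA, and 81.1 and 86.8 with PA + PS2. Its control libraries were above all 4 treated ones, with a log2 fold change of -0.13 ± 0.078 for PA + PS2 (adjusted p = 0.863) and -0.12 ± 0.078 for PA (adjusted p = 1.00). Uqcrq showed the same order at 86.01 and 90.3, 83.3 and 83.2, and 80.7 and 83.9 CPM (log2 fold change -0.098 for PA + PS2, adjusted p = 0.935). Uqcrfs1, the Rieske iron-sulphur protein, lay at 83.9 and 94.9, 86.5 and 89.3, and 84.6 and 85.0 CPM, with PA + PS2 below both PA libraries and the control overlapping both groups.

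Complex IV held the one wide difference. Cox6b2, the testis form of subunit 6b, had 29 and 34 counts in the control, 49 and 28 with PA, and 13 and 9 with PA + PS2, which is 0.864 and 1.01, 1.58 and 0.884, and 0.414 and 0.292 CPM. Both PA + PS2 libraries were below the other 4. Its log2 fold change was -1.40 ± 0.52 against control (unadjusted p = 0.0274, adjusted p = 0.674) and -1.79 ± 0.52 against PA (unadjusted p = 0.00835, adjusted p = 0.433), neither past the threshold, and with the block the smallest adjusted p was 0.292 and 0.140. The abundant form Cox6b1 lay at 146 and 150 CPM in the control, 141 and 143 with PA, and 133 and 155 with PA + PS2, with no such order. Cox7a2 lay at 86.6 and 87.9, 86.5 and 86.9, and 86.2 and 100 CPM, and Cox5b, a peripheral subunit on the matrix side, at 89.9 and 98.3, 97.6 and 101, and 90.6 and 109 CPM. In both, the repeat 2 library of PA + PS2 was the highest of the 6, while its repeat 1 library was the lowest for Cox7a2 and lay among the others for Cox5b. Cox6a1 and Cox8a gave no order either, Cox8a lying at 98.5 and 111 CPM in the control, 98.0 and 104 with PA, and 94.6 and 116 with PA + PS2. Cox7a1 had 9 to 26 counts per library, so its interval against control spanned -1.17 to 1.71.

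In ATP synthase, Atp5b was at 1049 and 1066 CPM in the control, 1030 and 1095 with PA, and 978 and 1033 with PA + PS2 (log2 fold change -0.073 ± 0.073, adjusted p = 0.962). Atp5a1 was at 723 and 784, 774 and 788, and 723 and 742 CPM (-0.040 ± 0.073, adjusted p = 0.993). The PA + PS2 libraries of Atp5b were below both control libraries and overlapped PA, while those of Atp5a1 were below both PA libraries and overlapped the control. Atp5g1 lay at 61.0 and 62.8, 60.0 and 59.2, and 57.6 and 57.5 CPM, lowest in both PA + PS2 libraries (-0.11 ± 0.080, adjusted p = 0.926). Its sister genes Atp5g3, at 187 and 196, 186 and 189, and 191 and 182 CPM, and Atp5g2, at 16.3 and 15.3, 14.0 and 16.8, and 14.1 and 18.5 CPM, did not share that order. Atp5mpl, a small proteolipid of the membrane part, lay at 48.9 and 47.8, 47.2 and 48.8, and 49.7 and 55.6 CPM, highest in both (0.12 ± 0.094, adjusted p = 0.929). Atp5l was outside this tight range, with 44 to 103 counts per library and an interval against control from -1.22 to 0.72. Counted over all complexes, the 2 PA + PS2 libraries lay beyond all 4 others in 7 of 77 members (9.09%, against 20.6% of all genes). Ndufs3 and Atp5mpl were above (9.42% of all genes were), and Atp5g1, Sdha, Uqcrc1, Ndufs1 and Cox6b2 below (11.2% of all genes). The largest log2 fold changes of these were those of Cox6b2, Atp5mpl and Atp5g1. For PA against control, the groups did not overlap in 23 members (29.9%, against 21.8% of all genes), 8 higher with PA (12.1% of all genes) and 15 lower (9.69% of all genes). For PA + PS2 against control they did not overlap in 14 (18.2%, against 33.6%), 4 higher (16.6% of all genes) and 10 lower (17.1%), and for PA + PS2 against PA in 15 (19.5%, against 35.2%), 5 higher (16.7%) and 10 lower (18.4%).

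Taken repeat by repeat, the median member of PA + PS2 lay below the control in repeat 1 and above it in repeat 2. Within repeat 1, 55 of the 77 genes were lower in PA + PS2 than in the control (median -0.06 on the log2 scale), and within repeat 2, 52 of 77 were higher (median 0.05). Lower in repeat 1 and higher in repeat 2 at once were 39 genes, or 50.6%, against 21.8% of all genes and 20.99% of all genes of at least 20 CPM. By complex these were 18 of 36 in complex I, 2 of 4 in II, 4 of 8 in III, 9 of 12 in IV and 6 of 17 in V. Against PA the count was 41 (53.2%, against 22.8%), from the same PA + PS2 libraries, and for PA against control it was 20 (26.0%, against 27.6%). With 1 library per group and repeat this pattern has no test. The PA + PS2 medians near 0 are thus averages of a lower and a higher library: without its repeat 1 library the median member difference from control was 0.071, and without repeat 2 it was -0.076. Not every complex sum changed direction. The PA + PS2 sums lay below the control in repeats 1 and 2 for complex III (log2 -0.060 and -0.026) and complex V (-0.055 and -0.028). Against PA the sums of complexes II, III and V were lower in both repeats. The median member of these complexes did change sign against PA between repeats 1 and 2. It was -0.076 and 0.0027 in complex II, -0.055 and 0.012 in III, and -0.031 and 0.076 in V. Against control it changed sign in complex III (-0.054 and 0.0071) but not in V (-0.047 and -0.0027).

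**Figure D4:**
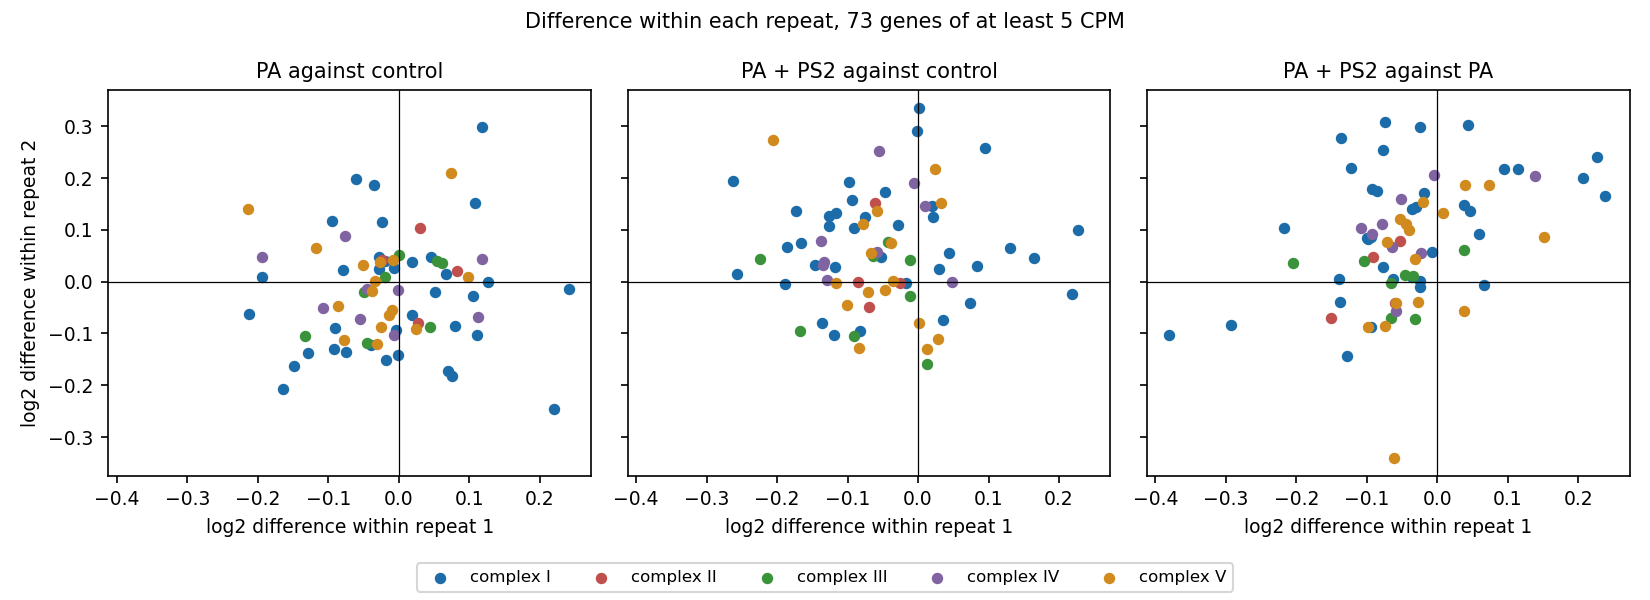
Log2 difference within repeat 1 (horizontal) against that within repeat 2 (vertical) for the 73 genes of at least 5 CPM, in each comparison. In both PA + PS2 panels most points lie to the left of 0 and most lie above 0, each axis taken alone. Both held at once for 39 of the 77 tested genes against control and 41 against PA. The PA panel spreads around the centre.

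Markers of other cell types differed between the same libraries. Summed astrocyte markers lay at 44.3 and 99.3 CPM in the control, 56.4 and 188 with PA, and 29.9 and 42.6 with PA + PS2, and oligodendrocyte precursor markers at 33.4 and 80.5, 23.7 and 122, and 7.91 and 6.30 CPM. Progenitor and cell cycle markers lay at 279 and 440, 324 and 484, and 213 and 233 CPM, vascular markers at 56.1 and 54.9, 66.5 and 46.6, and 41.6 and 17.1 CPM, and oligodendrocyte markers at 44.4 and 44.8, 57.6 and 47.7, and 74.3 and 107 CPM. All of these sums are below those of the neuron markers, but sums over different genes do not give the share of each cell type. The part of these cell types in the respiratory chain values was not tested.

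The repeat number itself separated some members. In the edgeR fit with group and repeat, a test added after the data were seen, 3 of 77 members differed between repeat 2 and repeat 1 at an adjusted p under 0.05, where 4.90% of all genes did. Cox7b, a complex IV subunit on the X chromosome (106015700-106022450, plus strand), lay at 161, 149 and 147 CPM in repeat 1 of control, PA and PA + PS2, and at 99.6, 96.2 and 99.9 CPM in repeat 2. The repeats did not overlap, and the log2 difference was -0.63 ± 0.058 (SE, adjusted p = 7.54e-05). Cox5a, a matrix-side subunit of complex IV (chromosome 9, 57521274-57532426, plus strand), went the other way, at 44.1, 38.5 and 42.4 CPM in repeat 1 and 53.8, 55.7 and 64.2 in repeat 2 (0.47 ± 0.078, adjusted p = 0.00514). Ndufa8, a complex I subunit facing the intermembrane space, lay at 69.9, 75.5 and 71.6 CPM in repeat 1 and 89.98, 83.8 and 85.5 in repeat 2 (0.26 ± 0.066, adjusted p = 0.0442). The Ndufa8 call was lost in DESeq2 (adjusted p = 0.0557), with library totals as scaling (0.0538) and without either control library or either PA + PS2 library, up to an adjusted p of 0.527; Cox7b and Cox5a passed in all of these. Without either PA library 6 members passed, Atp5e, Cox8a and Ndufa11 being added.

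**Figure D5:**
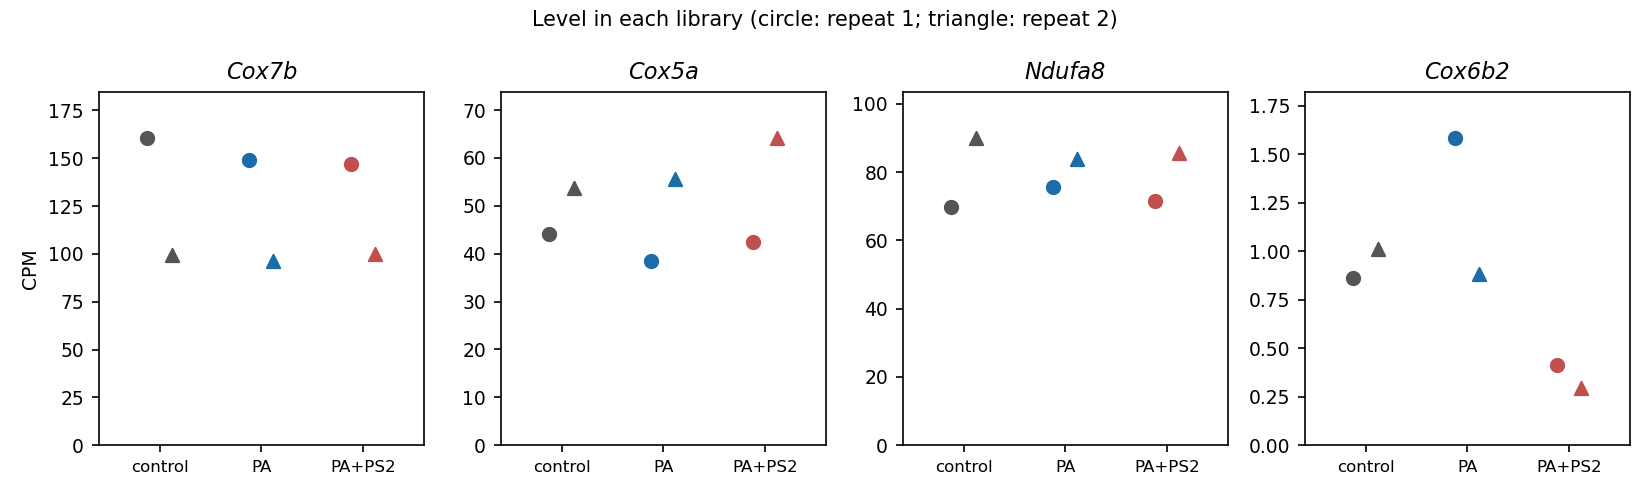
CPM of Cox7b, Cox5a, Ndufa8 and Cox6b2 in each library (circles repeat 1, triangles repeat 2). In every group Cox7b is higher in repeat 1, with 147 to 161 CPM, than in repeat 2, with 96.2 to 99.9 CPM, Cox5a and Ndufa8 are higher in repeat 2, and Cox6b2 is lowest in the 2 PA + PS2 libraries.

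X-linked genes and neighbouring genes were looked at beside these. Of 606 X-linked genes tested, 28 (4.62%) differed by repeat, and the other X-linked members, Ndufa1 and Ndufb11, did not pass. None of the 8 genes tested within 500 kb of Cox7b passed, among them Atp7a, Magt1 and Pgk1. Near Cox5a, 2 of 24 passed, both lower in repeat 2: Commd4 and the processed pseudogene Gm6166, with 14.2 to 15.4 CPM in the repeat 1 libraries and 1.26 to 1.95 CPM in the others. Near Ndufa8, 1 of 8 passed in the same edgeR fit, Lhx6 (log2 -0.37, adjusted p = 0.0225). It was lower in repeat 2, where Ndufa8 was higher. Over all genes 4.90% passed. Of the windows of the Cox5a transcript 32.0% occur in other annotated genes, and of those of Cox7b 0.63%. The repeats also differed in sex-linked RNA, with the Y-linked Ddx3y between 16.9 and 18.5 CPM in every repeat 1 library and between 36.2 and 39.5 CPM in repeat 2; its part in these differences was not tested. With the called genes included, 61 of the 77 members had a log2 difference above 0 (median 0.06, against 0.0075 over all genes). Higher in all repeat 2 libraries than in any repeat 1 library were 20 members, against 10.4% of all genes, and 3 were lower, against 12.4%. By complex the 20 were 8 of 36 tested in complex I, 0 of 4 in II, 2 of 8 in III, 7 of 12 in IV and 3 of 17 in V.

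Other genes of mitochondrial energy metabolism were counted beside the chain, and none of the lists held a call in edgeR without the block. Of 16 tricarboxylic acid cycle and pyruvate dehydrogenase genes, 15 had a log2 fold change below 0 for PA + PS2 against control (median -0.08) and 15 against PA (median -0.12), comparisons that share the PA + PS2 libraries. The smallest p-values belonged to Ogdh, a subunit of 2-oxoglutarate dehydrogenase, at 168 and 172 CPM in the control, 169 and 173 with PA, and 156 and 155 with PA + PS2 (log2 -0.13, adjusted p = 0.798), and to Cs, citrate synthase, at 402 and 429, 394 and 421, and 379 and 375 CPM (-0.14, adjusted p = 0.812). In both, the 2 PA + PS2 libraries were below the other 4. Fumarate hydratase, Fh1, had the same order at 73.4 and 69.3, 72.1 and 67.4, and 66.7 and 60.5 CPM (-0.17, adjusted p = 0.824). Of 9 inner and outer membrane carrier genes 8 were below 0 (median -0.05), the smallest p among these being that of the phosphate carrier Slc25a3 (-0.13, adjusted p = 0.841), while Ckmt1, mitochondrial creatine kinase, stood at 0.27 (adjusted p = 0.797).

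Of 14 regulators of mitochondrial biogenesis and mitochondrial DNA expression, 9 were above 0 for PA + PS2 against control (median 0.08). Nrf1, whose motif stands in some of the promoters above, was at 26.1 and 29.6 CPM in the control, 26.4 and 29.3 with PA, and 31.1 and 36.6 with PA + PS2. Both PA + PS2 libraries were above the other 4, and the difference of 0.28 ± 0.13 did not pass (adjusted p = 0.760). Gabpb1, the partner of GABPA, stood at 0.25 (adjusted p = 0.771) and the coactivator Pprc1 at 0.18 (adjusted p = 0.766). Assembly factors showed no common direction, with 6 of 13 above 0 for complex I, 6 of 10 for complexes II and III and 10 of 19 for complexes IV and V. Cycs, the cytochrome c gene, was at 54.4 and 59.2 CPM in the control, 50.1 and 52.2 with PA, and 48.4 and 47.1 with PA + PS2, below the other 4 in both PA + PS2 libraries (log2 -0.25 ± 0.090, adjusted p = 0.667; 0.252 with the block).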

How the data were processed

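RNA-seq libraries of 6 samples of cortical neurons were analysed from the raw counts per Ensembl gene that the authors deposited, per the file headers; all values are whole numbers, and each file holds 1 library. Per the submitters' processing notes the tools were STAR 2.7.5, cutadapt 4.2, DESeq2 1.14.1 and HTSeq 2.0.2, and the build mm10, all without roles; the sources used here give no settings, filters or strandedness, so overlapping and antisense genes are uncertain. Per the labels' protocols, extraction used an RNeasy micro kit and library preparation a TruSeq Total RNA kit, although the molecule label is polyA RNA.

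Of 54232 identifiers, 54165 matched GENCODE M21, which gave symbols, biotypes, coordinates and transcript lengths (the median of the principal transcripts). Counts were fitted by group with edgeR 4.0.16 (R 4.3.3) after filterByExpr and TMM scaling, over all 6 libraries (3 residual degrees of freedom), and 17299 genes were tested with the robust quasi-likelihood F test at a Benjamini-Hochberg adjusted p under 0.05. Standard errors and 95% intervals came from each F statistic and its fitted log2 difference. Library totals of 30714311 to 33923681 counts give a median standard error of 0.096 (log2) for the genes described. DESeq2 1.42.0, other scalings and filters, the repeat block and leaving out each library were alternatives. The script was tested on simulated data.

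Differences between the repeats correlated across genes at 0.35 (control with PA), 0.36 (control with PA + PS2) and 0.21 (PA with PA + PS2), so the numbers were taken to pair the libraries; this comes from the data, since the labels name no shared litter, batch or day. The block lowered the biological coefficient of variation from 16.7% to 9.57%.

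Named genes were, per complex, the 3 (complex II, 2) with the smallest p for PA + PS2 against control, the 2 highest and the lowest per kilobase, paralogue sets, members whose PA + PS2 libraries lie beyond all others, and up to 3 genes per other list by smallest p. Genes named for other reasons, among them those that differ by repeat, were chosen after their values were seen. The members and lists were chosen with earlier results of these data known. Promoter sequences are RefSeq's, on GRCm38.p6.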

Additional observations from a re-analysis of the deposited data

How the results depend on the processing

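No respiratory chain gene passed in any of the 63 combinations of comparison and alternative; the alternatives were other scalings, filters, tools, the repeat block, leaving out each library and the block with each library left out (the last chosen after seeing the data). The count over all genes, 0 in each comparison without the block, moved with the setting: for PA against control, PA + PS2 against control and PA + PS2 against PA it was 2, 425 and 501 with no filter on low counts, 0, 125 and 183 in DESeq2, 0, 121 and 263 with the replicate block and 1, 275 and 365 in DESeq2 with the replicate block. Leaving out 1 library gave 0 to 0, 0 to 29 and 0 to 13, the highest values without PA + PS2 repeat 1. With the block as well, the counts for PA + PS2 against control and against PA were 137 and 295 without control repeat 1, 4 and 250 without control repeat 2, 874 and 1008 without PA repeat 1, 816 and 196 without PA repeat 2, 942 and 1021 without PA + PS2 repeat 1, and 15 and 32 without its repeat 2; PA against control gave 0 to 35, with 1 without control repeat 1, 31 without PA repeat 1 and 35 without PA repeat 2. The block changed no call among the members. The cause of these shifts was not tested.

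Leaving out PA + PS2 repeat 2 or repeat 1 turned the sign of the member median, from -0.076 to 0.071 against control and from -0.062 to 0.089 against PA. The complex sums ranged over the same omissions from -0.060 to 0.080 (I), -0.056 to 0.015 (II), -0.085 to -0.0026 (III), -0.062 to 0.071 (IV) and -0.084 to 0.00049 (V) against control, and from -0.050 to 0.090 (I), -0.089 to -0.018 (II), -0.076 to 0.0057 (III), -0.039 to 0.094 (IV) and -0.084 to 0.00077 (V) against PA. For complex V against PA the median over members was 0.0080 where the sum gave -0.041. The complex V sums and the others not given here, 103 in all, and 41 medians moved by less than the spread between replicates. Counts under 100 per library limit Cox6b2, Cox6a2 and Cox7a1.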
